A study of Chlamydomonas reinhardtii with 28 samples.

Results

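CC-1690, a *Chlamydomonas reinhardtii* wild-type strain labelled mt+, was compared with CC-4532, a wild-type strain labelled mt- from which the reference genome of the species was built. The comparison rests on 8 libraries, 4 of CC-1690 and 4 of CC-4532, of the 28 libraries of 7 strains in the series, and they were chosen by the strain name in the sample labels. All cultures were grown photoheterotrophically in Tris-Acetate-Phosphate (TAP) medium, which supplies acetate, with shaking at 180 rpm under 50 to 70 µmol photons of continuous light, and were collected in mid-log phase with no treatment, so that the strain is what differs. The 2 strains differ in mating type and in genetic background at once, each strain stands for itself only, and an effect of mating type cannot be told apart from one of the background. RNA abundance was measured as FPKM (reads scaled to the length of the gene and to the depth of the library), which the authors calculated per gene and library.

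*C. reinhardtii* is a single-celled green alga that swims with a pair of cilia, also called flagella, and is enclosed in a cell wall built of hydroxyproline-rich glycoproteins rather than cellulose. Its mating type is set by a locus with a plus and a minus version, and haploid cells of either type grow vegetatively until nitrogen starvation turns them into gametes. In light with acetate the cells photosynthesize and respire at the same time, so that transcripts of the chloroplast and of the mitochondrion are abundant in the same culture.

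Between 16121 and 16345 of the 17611 genes in the table were listed above 0 in each of the 8 libraries. The FPKMs of a library summed to 806599, 1319895, 794084 and 982262 in CC-1690 replicates 1 to 4, against 564852 to 603728 in the 4 CC-4532 libraries, and the 100 highest genes held 55.3% to 62.2% of that sum in CC-1690, against 46.4% to 47.8% in CC-4532. Replicates of a strain were close, with a mean correlation across genes of 0.987 to 0.992 in CC-1690 and 0.995 in CC-4532 (genes are not independent replicates). CC-1690 replicate 2 stood apart from its strain: 524 genes were more than 2-fold from the mean of its 3 companions, against 127 to 150 genes in the other CC-1690 libraries and 76 to 116 in CC-4532. The absolute depth is unknown because only FPKMs were used, and the steps between low values gave a rough relative depth of 0.737 to 0.853 in CC-1690 and 0.854 to 1.05 in CC-4532 (7 to 15 genes per pair of libraries at the least).

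The minus mating type genes were as the labels say, while the plus genes were too low to check the mt+ label. *MID1* (Cre06.g800600), the minus dominance gene that directs minus mating, was listed at 0, 0, 0.08 and 0 FPKM in CC-1690, against 4.02, 3.26, 3.99 and 4.64 FPKM in CC-4532. *MTD1* (Cre06.g800601), its neighbour in the minus locus, was listed at 0, 0, 0 and 0.07 FPKM in CC-1690 and at 1.64 to 2.07 FPKM in CC-4532. The plus gene *FUS1*, which plus gametes need for fusion, was listed at 0.05, 0, 0.05 and 0.1 FPKM in CC-1690 and at 0 in all 4 CC-4532 libraries, and *SPP1C*, the other gene of the plus list, at 0 to 0.08 FPKM in CC-1690 and 0 to 0.03 FPKM in CC-4532. These plus genes were thus near the floor in the plus strain itself, where the cells were vegetative. Among the other strains the highest mean of *SPP1C* was 0.985 FPKM, in CC-124, which is mt-.

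A gene named for plus gametes was instead high in the minus strain. *GSP1* (Cre02.g109650), a homeodomain protein that the plus gamete brings to the zygote, was at 0.32, 0.27, 0.39 and 0.45 FPKM in CC-1690, against 17.49, 17.6, 19.53 and 19.69 FPKM in CC-4532. It was lower in CC-1690 by a log2 difference of -5.37 ± 0.21 (SE), with an adjusted p = 2.09e-15 in limma's treat test against 2-fold. The mean of *GSP1* in the 5 other strains ran from 0.715 FPKM in CC-1691 to 25.8 FPKM in CC-1009, both mt-, and was 9.85 FPKM in CC-125, which is mt+. Its partner from the minus gamete, *GSM1*, was at 0 to 0.12 FPKM in CC-1690 and 0.05 to 0.19 FPKM in CC-4532. The plus agglutinin gene *SAG1*, which codes for a flagellar adhesion protein of mating, was at 0.68 to 0.98 FPKM in CC-1690 and 0.49 to 0.61 FPKM in CC-4532, and the gamete fusion gene *HAP2* at 0 to 0.14 FPKM in CC-1690 and 0.2 to 0.34 FPKM in CC-4532 (these 3 genes were picked after their values were seen). Of the 38 tested genes of the gamete and zygote list, 13 (34.2%, against 32.9% of all genes) were called higher in CC-1690 (moderated test, below). In the same list 16 (42.1%, against 33.4%) were called lower, and the median log2 difference was 0.05.

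The strains differed at 897 genes by the stricter of 2 call rules. A gene is called a DEG here when its difference passes limma's treat test against a 2-fold change at an adjusted p of 0.01, with a mean above 1 FPKM in CC-1690 or CC-4532, on the log2(FPKM + 0.1) scale, which understates the change of genes near 0. Of 14785 genes tested, 897 (6.07%) were DEGs, 349 (2.36%) of them higher and 548 (3.71%) lower in CC-1690. In every one of the 897 the 4 values of CC-1690 and the 4 of CC-4532 did not overlap, as was so for 62.8% of all genes tested. Their median size was 2.29 on the log2 scale, and 265 of them differed by more than 8-fold. Without CC-1690 replicate 2 there were 842 DEGs, 301 higher and 541 lower, and 785 of the 897 were among them. Rescaling every library to the same summed FPKM moved the median of all genes to -0.675 on the log2 scale and the DEGs to 110 higher (7.10% of the DEGs, against 38.9% as deposited) and 1440 lower, so the differences of gene lists are read here relative to the median of all genes. The list calls below rest on the other rule, limma's moderated test against no change at an adjusted p of 0.05, which called 4862 genes (32.9%) higher and 4932 (33.4%) lower in CC-1690, with a median of 0.00 over all genes. The plot of difference against level shows the DEGs spread over the levels below about 1000 FPKM. The 147 genes with a mean of 1000 FPKM or more over the pair of strains held 1 higher and 0 lower DEGs. The largest difference was 9.62 among the higher DEGs and 8.75 among the lower ones, and 81 of the higher and 184 of the lower DEGs exceeded 8-fold.

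**Figure D1:**
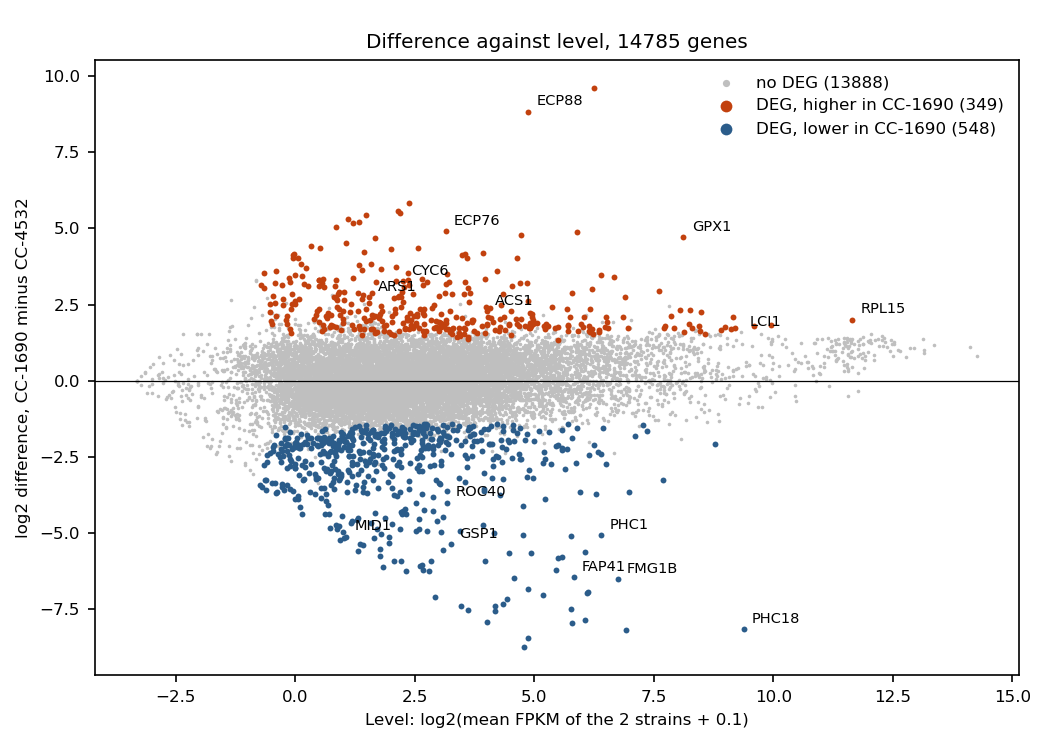
Each point is a gene, placed by its level in the pair of strains (x axis, log2 of the mean FPKM + 0.1) and its log2 difference, CC-1690 minus CC-4532 (y axis). The 349 DEGs higher in CC-1690 are red, the 548 lower are blue and all other genes are gray; at the right end, where genes exceed about 1000 FPKM, nearly all points lie above 0.

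The largest increases in genes with a symbol were *ECP88* and *ECP76*. *ECP88* (Cre12.g556000) and *ECP76* (Cre06.g288550) code for extracellular polypeptides that *C. reinhardtii* secretes when sulfate runs short. *ECP88* was at 97.19, 59.67, 39.91 and 37.25 FPKM in CC-1690, against 0, 0, 0.04 and 0.04 FPKM in CC-4532 (log2 difference 8.84 ± 0.63, adjusted p = 1.13e-10). *ECP76* was at 21.61, 20.55, 12.5 and 13.39 FPKM in CC-1690, against 0.36 to 0.57 FPKM in CC-4532 (4.92 ± 0.38, adjusted p = 5.96e-09). *ARS1* (Cre16.g671400), the periplasmic arylsulfatase that frees sulfate from organic esters, was at 6.16, 7.29, 3.66 and 2.97 FPKM in CC-1690, against 0.56, 0.56, 0.63 and 0.75 FPKM in CC-4532 (2.74 ± 0.31, adjusted p = 0.000107). In all 3 genes CC-1690 replicates 1 and 2 were above replicates 3 and 4, and all 4 were above every CC-4532 library. The means of the 5 other strains reached 5.09 FPKM for *ECP88*, 9.2 FPKM for *ECP76* and 2.43 FPKM for *ARS1*, each below the CC-1690 mean.

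*GPX1* (Cre02.g078300), a selenoprotein glutathione peroxidase that reduces peroxides, was the most abundant gene among the large increases. It was at 500.61, 622.02, 489.06 and 530.89 FPKM in CC-1690, against 19.57, 19.73, 20.45 and 20.49 FPKM in CC-4532 (log2 difference 4.73 ± 0.11, adjusted p = 1.48e-19). Both strains were tight here, and CC-4532, with CC-125 at 21.9 FPKM, was at the low end of the 7 strains. *CAL1* (Cre03.g200050), a calpain family cysteine protease, was at 42.66, 50.91, 42.11 and 51.05 FPKM in CC-1690, against 2.98, 3.62, 2.31 and 2.31 FPKM in CC-4532 (4.03 ± 0.16, adjusted p = 1.85e-14). The means of the 5 other strains were 24.9 to 32.7 FPKM for *CAL1*, so that CC-4532 lay far below all of them. *CYC6* (Cre16.g651050), the cytochrome c6 that stands in for plastocyanin when copper is scarce, was at 7.02, 6.26, 10.52 and 10.25 FPKM in CC-1690, against 0.91, 1.24, 0.66 and 0.44 FPKM in CC-4532 (3.28 ± 0.33, adjusted p = 6.73e-06).

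The remaining increases among the 12 largest with a symbol were mixed. *NRT2D* and *NRT2E*, neighbouring genes for nitrate transporters, were at 1.34 to 1.91 and 0.93 to 1.15 FPKM in CC-1690, against 0.03 to 0.09 and 0 to 0.1 FPKM in CC-4532. *GSTS1*, a glutathione S-transferase, was at 35.63 to 45.74 FPKM in CC-1690, against 3.96 to 5.76 FPKM in CC-4532, and *NFO2*, an NADH:flavin oxidoreductase, at 16.08 to 26.18 FPKM in CC-1690, against 2.13 to 2.9 FPKM in CC-4532. *CYB2*, a cytochrome b5 flavohemoprotein, was at 8 to 12.02 FPKM in CC-1690, against 0.25 to 1.02 FPKM in CC-4532. *SUMO2*, one of the genes for small ubiquitin-like modifiers, was at 17.86 to 22.96 FPKM in CC-1690, against 2.07 to 3.39 FPKM in CC-4532 (log2 difference 2.84 ± 0.21, adjusted p = 9.22e-08). All 4 tested *SUMO* genes were called higher, against 32.9% of all genes, with a median log2 difference of 0.96. *SUMO* genes resemble each other, and reads that fit several places were given 1 place at random, so that the share of each copy is uncertain.

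The largest increase of all was in a gene with no symbol or definition. Cre16.g681200 was at 122.19, 176.95, 138.42 and 167 FPKM in CC-1690, against 0.13, 0.13, 0 and 0.15 FPKM in CC-4532 (log2 difference 9.62 ± 0.27, adjusted p = 7.95e-19). CC-1691 was near the floor for it as well, with a mean of 0.253 FPKM, while the 4 remaining strains had means of 34.1 to 99.2 FPKM. Cre03.g177300, defined as haloperoxidase-like, was at 14.46, 12.98, 6.64 and 6.12 FPKM in CC-1690 and 0 to 0.17 FPKM in CC-4532, and Cre14.g631600, with no definition, at 7.15 to 10.06 FPKM in CC-1690 and 0.05 to 0.12 FPKM in CC-4532.

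Among the decreases, the largest in genes with a symbol were of surface and flagellar proteins. *PHC18* (Cre24.g755997), a pherophorin-like protein also found in flagella, was at 3.15, 10.63, 2.88 and 4.03 FPKM in CC-1690, against 1192, 1016, 1481 and 1610 FPKM in CC-4532 (log2 difference -8.16 ± 0.48, adjusted p = 2.7e-12). *FMG1B* (Cre09.g392867), the major glycoprotein of the flagellar membrane, which carries gliding motility, was at 2.17, 2.48, 1.88 and 2.33 FPKM in CC-1690, against 208.14, 214.56, 222.2 and 203.62 FPKM in CC-4532 (-6.52 ± 0.17, adjusted p = 3.73e-19). The replicates of *FMG1B* were tight in both strains and the 5 other strains had means of 57.7 to 284 FPKM, so that CC-1690 lay below all of them. *FAP41* (Cre10.g452250), a flagellar associated protein, was at 0.75, 1.43, 1.24 and 1.38 FPKM in CC-1690, against 113.15, 96.57, 112.14 and 124.85 FPKM in CC-4532 (-6.46 ± 0.39, adjusted p = 9.79e-12). For *PHC18* and *FAP41* the other strains themselves were split: CC-125 and CC-4533 had means of 5.64 and 2.01 FPKM of *PHC18* and of 1.66 and 0.38 FPKM of *FAP41*, and the other 3 strains had means of 195 to 924 FPKM of *PHC18* and 117 to 334 FPKM of *FAP41*.

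The remaining decreases among the 12 largest with a symbol were mixed. *FAP199*, a flagellar associated protein with a lipase domain, was at 2.08 to 3.43 FPKM in CC-1690, against 112.81 to 145.08 FPKM in CC-4532. *PPD1*, a pyruvate phosphate dikinase that interconverts pyruvate and phosphoenolpyruvate, was at 0 to 0.06 FPKM in CC-1690, against 4.45 to 5.4 FPKM in CC-4532. *THB8* (Cre16.g661200), a truncated hemoglobin, was listed at 0 in all 4 CC-1690 libraries and at 3.63, 3.08, 3.95 and 3.93 FPKM in CC-4532, and the means of the 5 other strains were at or under 0.0175 FPKM, so that the gene was on in CC-4532 alone among the 7 strains. *MMP19*, a matrix metalloproteinase of the family whose members digest wall glycoproteins, was at 0.23 to 0.88 FPKM in CC-1690, against 13.74 to 18.02 FPKM in CC-4532. The pherophorins *PHC38*, *PHC1* and *PHC6*, described with the cell wall, and *GSP1* and *MID1* complete the 12.

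**Figure D2:**
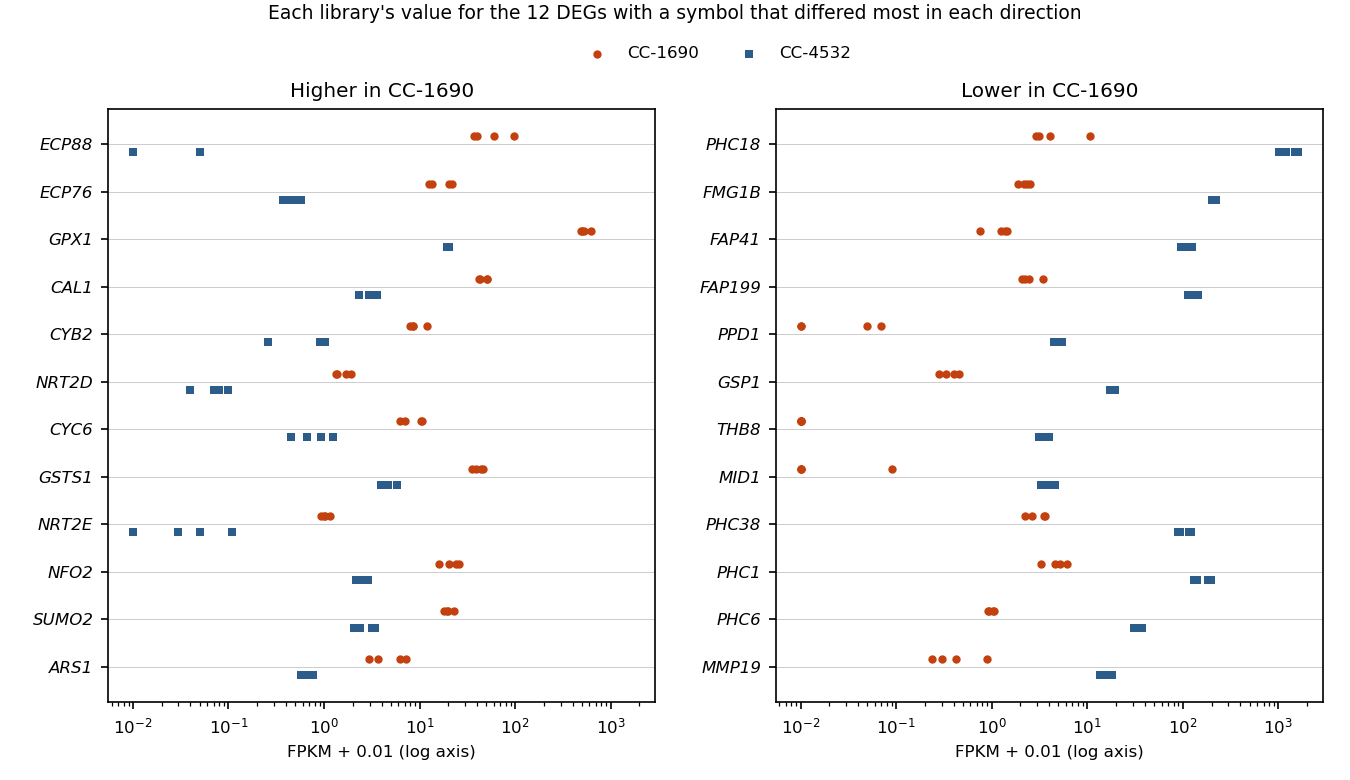
Each dot (CC-1690, red) and square (CC-4532, blue) is 1 library's FPKM + 0.01 on a log axis for the 12 DEGs with a symbol that differed most in each direction (left, higher in CC-1690; right, lower). The 24 genes were taken only from DEGs in which the strains do not overlap, which held for all 897 DEGs. *PHC18* reaches 1610 FPKM in CC-4532 against at most 10.63 FPKM in CC-1690.

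Without a symbol, the 3 largest decreases had no definition either. Cre14.g801600 was at 0, 0.16, 0 and 0 FPKM in CC-1690, against 57.1, 54.42, 54.7 and 52.32 FPKM in CC-4532 (log2 difference -8.75 ± 0.33, adjusted p = 2.68e-16), and no other strain had a mean above 0.32 FPKM. Cre18.g749547 was at 0.03 to 0.24 FPKM in CC-1690 and 53.93 to 64.06 FPKM in CC-4532, and Cre09.g405100 at 0.41 to 1.68 FPKM in CC-1690 and 215.69 to 260.42 FPKM in CC-4532. For these 2 genes the other strains spread over the whole range, with means of 0.065 to 32.9 FPKM of Cre18.g749547 and 0.358 to 188 FPKM of Cre09.g405100.

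Cell wall genes were lower in CC-1690 almost as a group. Pherophorins are hydroxyproline-rich glycoproteins of the extracellular matrix of volvocine algae, and the list also holds the vegetative wall genes (*VSP*, *ISG*, *CWP*) and the *GAS* glycoproteins. Of 42 members tested, 37 were called lower (88.1%, against 33.4% of all genes), 3 higher (7.14%, against 32.9%) and 2 neither, with a median log2 difference of -2.30, and 24 of the 42 were DEGs with a decrease and 1 with an increase. The median member was at 3.57, 3.45, 2.94 and 3.95 FPKM in CC-1690, against 18.8, 18.1, 14.8 and 14.9 FPKM in CC-4532. *PHC38* (Cre02.g094450) was at 2.22 to 3.6 FPKM in CC-1690, against 88.88 to 122.1 FPKM in CC-4532 (log2 difference -5.10 ± 0.37, adjusted p = 1.37e-09). *PHC1* (Cre17.g717900) was at 3.29 to 6.18 FPKM in CC-1690, against 132.24 to 196.7 FPKM in CC-4532 (-5.07 ± 0.38), and *PHC6* (Cre17.g717950) at 0.9 to 1.04 FPKM in CC-1690, against 31.1 to 37.72 FPKM in CC-4532 (-5.01 ± 0.38). CC-4532 was not uniform here: replicates 1 and 2 were above replicates 3 and 4 in *PHC38*, *PHC1* and *PHC6*, and below them in *PHC18* and *PHC35*.

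Most of the wall genes that escaped the decrease were pherophorins too. *PHC66*, *PHC30* and *PHC52* were called higher in CC-1690, with log2 differences of 1.73, 1.55 and 1.31, and *PHC47* (-0.12) and *GAS31* (0.37) were not called. Several pherophorin DEGs are neighbours in the gene ID order (picked, like the exceptions above, after their values were seen). *PHC8*, *PHC1*, *PHC6* and *PHC7* are consecutive (Cre17.g717850 to Cre17.g718000), with log2 differences of -2.23, -5.07, -5.01 and -4.60, and *PHC36*, *PHC5* and *PHC35* are consecutive (Cre05.g238600 to Cre05.g238687), with -4.02, -3.72 and -2.72. Reads shared between such related genes could be placed in either copy, so the level of a single pherophorin is less certain than that of the group.

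**Figure D3:**
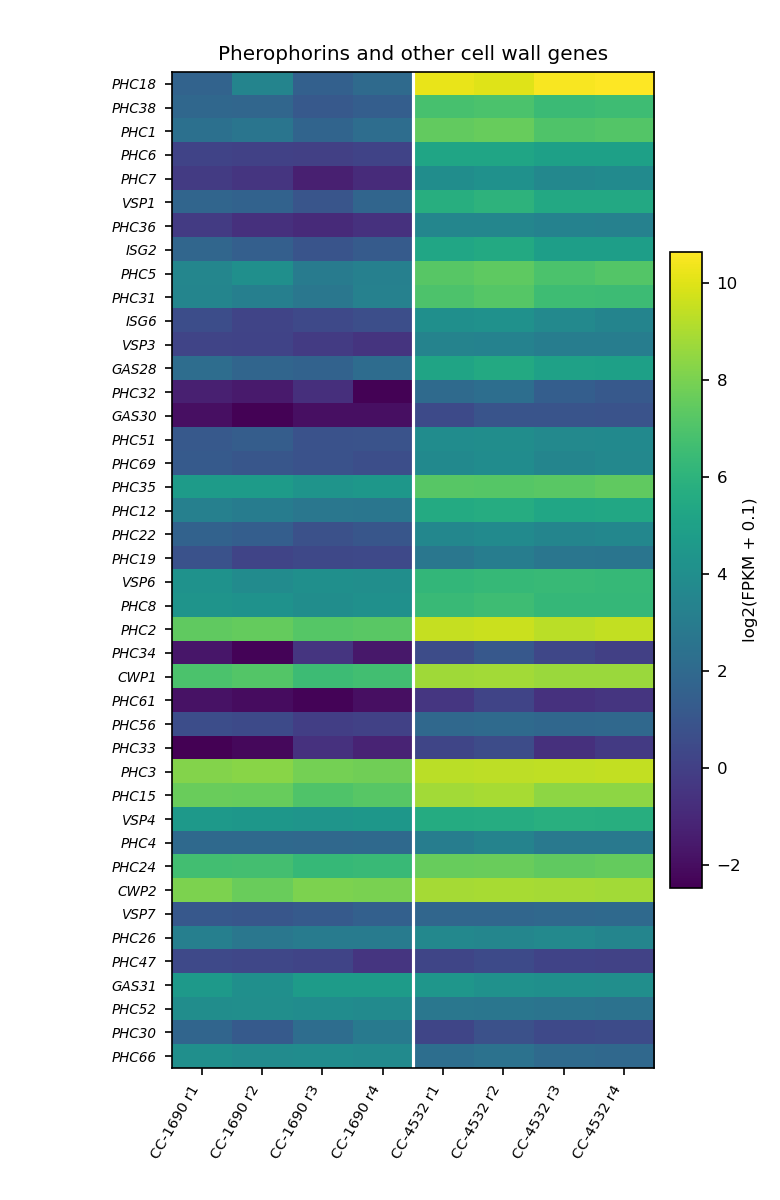
The heat map gives log2(FPKM + 0.1) of the 42 tested cell wall genes (rows, sorted from the lowest to the highest log2 difference) in the 4 CC-1690 libraries (left of the white line) and the 4 CC-4532 libraries (right). The upper 37 rows are darker, that is lower, on the left, and *PHC52*, *PHC30* and *PHC66* in the bottom rows are brighter there.

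Enzymes that act on the wall did not all move with it. Of 24 tested matrix metalloproteinases, 13 were called lower (54.2%, against 33.4% of all genes) and 4 higher (16.7%, against 32.9%), with a median log2 difference of -0.98. Of the 24, 8 were DEGs, each lower, while 3.71% of all genes were lower DEGs. After *MMP19* the largest were *MMP33* (0.21 to 0.38 FPKM in CC-1690, 3.96 to 5.84 FPKM in CC-4532), *MMP25* (0.25 to 0.6 and 5.04 to 6.61 FPKM in the same order) and *MMP13* (0.96 to 1.48 and 9.2 to 12.5 FPKM). In contrast, 14 of 16 prolyl hydroxylase and arabinosylation genes, whose enzymes modify hydroxyproline-rich proteins, were called higher in CC-1690 (87.5%, against 32.9% of all genes). None was called lower, and the median log2 difference was 0.61. None of the 16 was a DEG. The largest was *PFH3*, a prolyl 4-hydroxylase, at 9.87, 18.46, 9.82 and 11.97 FPKM in CC-1690 and 4.53 to 5.14 FPKM in CC-4532 (log2 difference 1.32 ± 0.23, adjusted p = 2.51e-05 in the moderated test), while the 5 other strains had means of 15 to 182 FPKM.

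Flagellar genes were more often called lower than higher in CC-1690, apart from some large exceptions. The flagellar associated proteins (*FAP* genes) are named from proteomes of the isolated organelle, so the list mixes many functions. Of 336 tested, 178 were called lower and 44 higher, with a median log2 difference of -0.48, and 18 DEGs were lower and 5 higher. Below *FAP41* and *FAP199* the largest decreases were *FAP325* (0 to 0.81 FPKM in CC-1690, 10.59 to 15.1 FPKM in CC-4532) and *FAP413* (0.18 to 0.24 FPKM in CC-1690, 7.95 to 9.47 FPKM in CC-4532). The adjacent genes *FAP310* and *FAP212* (picked after their values were seen, as were *FAP35* and *FAP265*) were also lower, at 30.36 to 52.34 and 14.58 to 21.54 FPKM in CC-1690 and 357.36 to 383.61 and 198.88 to 261.78 FPKM in CC-4532. The 2 highest expressed exceptions were *FAP35*, at 463.06, 664.35, 399.12 and 509.28 FPKM in CC-1690, against 94.73 to 105.42 FPKM in CC-4532, and *FAP265*, at 395.72, 417.65, 320.6 and 375.1 FPKM in CC-1690, against 71.29 to 95.67 FPKM in CC-4532, with log2 differences of 2.32 and 2.11.

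In the axoneme the dynein heavy chains followed the same direction with smaller differences. All 16 axonemal dynein heavy chain genes, which code for the motors that bend the cilium, were called lower in CC-1690, with a median log2 difference of -1.09 and a range of -1.75 to -0.42. *DHC2* had the largest difference, at 3.07, 2.09, 2.47 and 1.87 FPKM in CC-1690, against 8.43, 8.27, 8.07 and 7.61 FPKM in CC-4532. Over the whole list of dyneins and radial spokes, 33 of 66 genes were called lower (50.0%, against 33.4% of all genes). In the same list 12 were called higher (18.2%, against 32.9%), with a median of -0.40 and no DEG. Of 17 radial spoke genes 7 were called lower and 3 higher, with a median of -0.30. The summed FPKM of the list was higher in CC-1690, at 1559 to 2065, against 1217 to 1286 in CC-4532. Intraflagellar transport and BBSome genes, whose products carry cargo along the cilium, were mostly not called, with 19 of 33 in neither direction. Of the 33, 8 were called lower (24.2%, against 33.4% of all genes) and 6 higher (18.2%, against 32.9%). *IFT27* and *IFT20* were called higher, at 43.04 to 64.54 and 79.15 to 134.74 FPKM in CC-1690, against 13.37 to 16.63 and 27.05 to 32.78 FPKM in CC-4532, and *IFT172* lower, at 8.04 to 9.66 FPKM in CC-1690, against 16.68 to 18.12 FPKM in CC-4532.

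In the flagellar membrane the paralogs of *FMG1* went in opposite directions. While *FMG1B* was 2.2 FPKM on average in CC-1690 and 212 FPKM in CC-4532, *FMG1A* (Cre18.g750047) was at 34.58, 25.73, 29.09 and 28.98 FPKM in CC-1690, against 11.1, 12.15, 11.11 and 10.44 FPKM in CC-4532 (log2 difference 1.39 ± 0.16, adjusted p = 5.01e-08 in the moderated test). Both genes separate the strains fully, as did 62.8% of all genes tested. The increase of *FMG1A* in FPKM is far smaller than the decrease of *FMG1B*. *MST1*, the protein of the hair-like mastigonemes on the cilium, was at 26.33 to 32.83 FPKM in CC-1690, against 121.6 to 128.01 FPKM in CC-4532, and was a DEG (-2.12 ± 0.19, adjusted p = 5.86e-05).

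Genes of the cytosolic ribosome were higher in CC-1690 on the deposited scale. All 68 tested genes of the 80S ribosome list were called higher, against 32.9% of all genes, with a median log2 difference of 1.22 and a range of 0.58 to 2.00. The median ribosomal gene was at 3426, 6216, 3351 and 4607 FPKM in CC-1690, against 1751, 1880, 1896 and 1942 FPKM in CC-4532, with CC-1690 replicate 2 the highest. *RPL15*, the single DEG of the list, was at 4064, 7229, 4013 and 5277 FPKM in CC-1690, against 1174, 1275, 1248 and 1290 FPKM in CC-4532 (log2 difference 2.00 ± 0.19, treat adjusted p = 0.000179). The chloroplast ribosome did not follow. Of its 37 genes 17 were called lower (45.9%, against 33.4% of all genes) and 3 higher (8.11%, against 32.9%), with a median of -0.20. The mitochondrial ribosome went the same way as the cytosolic one, with smaller differences. Of its 72 genes 32 were called higher (44.4%) and 4 lower (5.56%), with a median of 0.26. Without CC-1690 replicate 2 these medians were -0.48 for the chloroplast ribosome and 0.15 for the mitochondrial one, and after quantile normalization 31 of the 37 chloroplast genes were called lower (median -0.59). *PRPS5* and *PSRP7* of the chloroplast ribosome list were DEGs with a decrease, at 43.26 to 94.16 and 56.83 to 125.27 FPKM in CC-1690 and 200.07 to 232.12 and 226.12 to 269.25 FPKM in CC-4532.

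These shifts ran with the level of a gene. Among the 147 genes with a mean of 1000 FPKM or more over the pair of strains, 129 were called higher in CC-1690 and 4 lower, with a median log2 difference of 0.98, and in the 46 of them outside the ribosome, respiratory, photosystem and antenna lists 33 were called higher and 4 lower, with a median of 0.68. Among the 10419 genes under 10 FPKM the median was -0.11. After quantile normalization, which forces all libraries to the same distribution of values, the median of the genes at 1000 FPKM or more was 0.06 and that of the ribosomal list was 0.30, with 49 of its 68 genes called higher and 5 lower. Without CC-1690 replicate 2 the ribosomal median was 1.04 on the deposited scale.

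Respiratory genes were higher in CC-1690. Of 92 tested genes of the mitochondrial chain and its ATP synthase, 84 were called higher (91.3%, against 32.9% of all genes) and 2 lower (2.17%, against 33.4%). The median log2 difference was 0.98, and 11 were DEGs, each higher, while 2.36% of all genes were higher DEGs. The median member was at 143, 208, 150 and 155 FPKM in CC-1690, against 88.2, 91.3, 92.3 and 93.1 FPKM in CC-4532. By complex, 36 of 41 *NUO* genes (complex I, median 0.90), 7 of 7 *QCR* genes (complex III, 1.41), 14 of 16 *COX* genes (cytochrome c oxidase, 1.19) and 22 of 23 genes of the ATP synthase (1.11) were called higher. *CYC1*, mitochondrial cytochrome c, was at 1153, 2179, 1238 and 1670 FPKM in CC-1690, against 390, 419, 423 and 475 FPKM in CC-4532 (log2 difference 1.83 ± 0.22, treat adjusted p = 0.00704). *COX90*, a subunit of cytochrome c oxidase, was at 346.62 to 633.08 FPKM in CC-1690, against 122.47 to 135.95 FPKM in CC-4532, *COX19*, an assembly factor of that enzyme, at 9.2 to 21.61 and 2.94 to 3.72 FPKM in the same order, and *ATP9B*, a subunit of the ATP synthase, at 965 to 1670 and 318 to 371 FPKM. The list median stayed above that of all genes by 0.68 after quantile normalization.

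Most DNA replication genes were higher in CC-1690, this time with replicate 2 the lowest, while cyclins and their kinases were mixed. Of 58 tested in the list of DNA replication and cell cycle, 42 were called higher (72.4%, against 32.9% of all genes) and 4 lower (6.90%, against 33.4%), with a median log2 difference of 0.94. The median member was at 7.69, 4.95, 8.87 and 8.14 FPKM in CC-1690, against 4.81, 4.51, 4.32 and 3.88 FPKM in CC-4532. Of the minichromosome maintenance (*MCM*) genes, which code for the replicative helicase, 7 of 8 were called higher, and so were all 5 genes of replication factor C, the clamp loader. *MCM6* was at 19.43, 11.15, 26.73 and 22.99 FPKM in CC-1690, against 4.91 to 8.55 FPKM in CC-4532, *RFC2* at 26.96 to 37.03 and 9.16 to 11.71 FPKM in the same order, and *RFC5* at 12.49 to 21.21 and 4.37 to 6.47 FPKM. *CYCD5*, a D-type cyclin, was the DEG of the list, at 3.31, 2.25, 3.84 and 3.07 FPKM in CC-1690, against 0.53 to 0.84 FPKM in CC-4532 (log2 difference 2.04 ± 0.23, treat adjusted p = 0.00154). Over 15 tested cyclins and cyclin-dependent kinases, 7 were called higher and 3 lower, with a median of 0.18. *CDK1* (picked after its values were seen), a cyclin-dependent kinase outside the list, was a DEG with a decrease, with a mean of 2.25 FPKM in CC-1690 and 10.3 FPKM in CC-4532 (-2.15 ± 0.13, treat adjusted p = 7.66e-08). The cultures were not synchronized by a light cycle, and the share of dividing cells was not measured here.

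**Figure D4:**
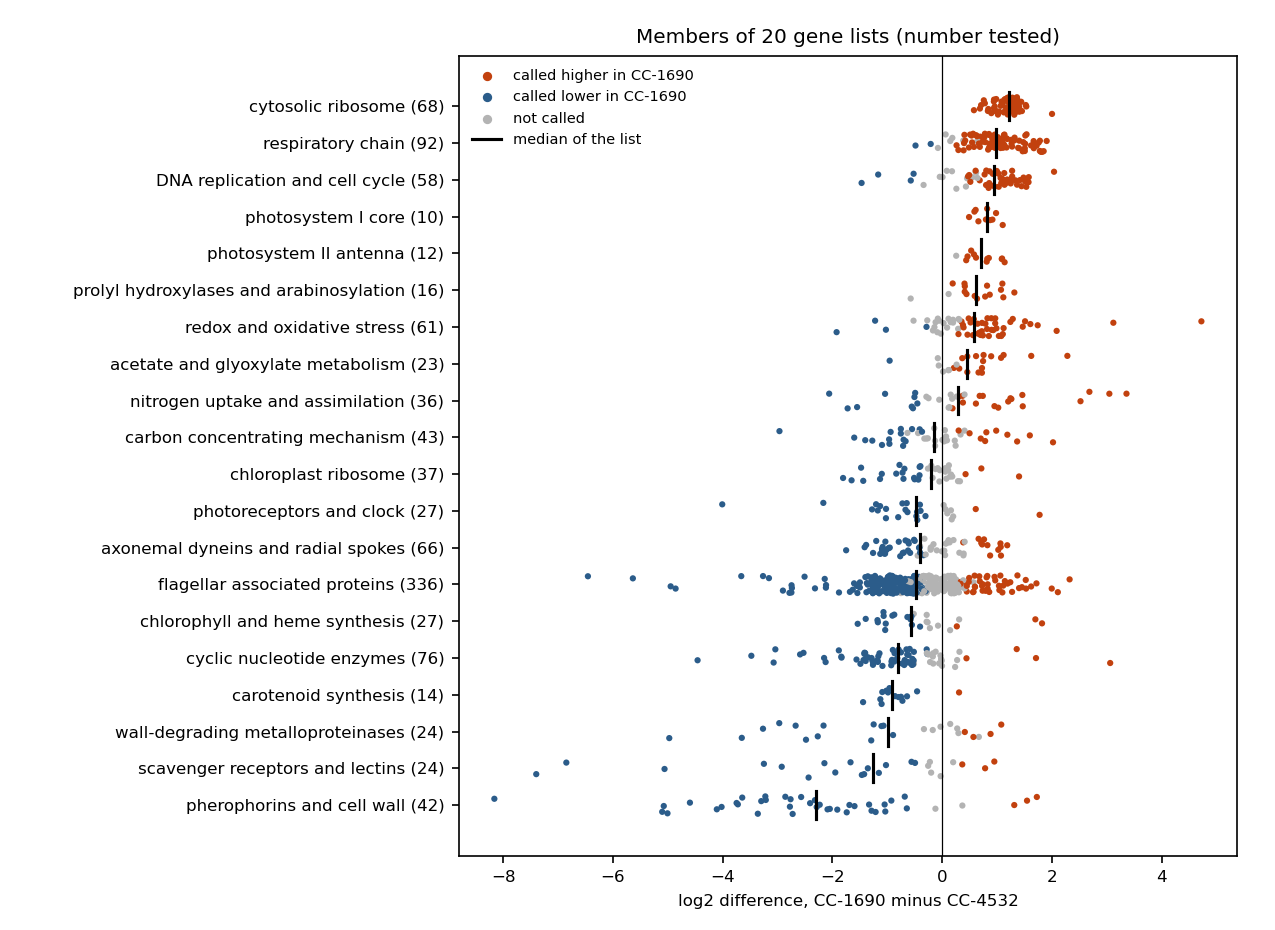
Each point is a gene of 1 of 20 lists, at its log2 difference, CC-1690 minus CC-4532 (x axis), with the number of genes tested after the list's name; black bars are list medians. Red and blue points were called higher and lower in CC-1690 (moderated test, adjusted p of 0.05), and the medians run from -2.30 for the cell wall list to 1.22 for the cytosolic ribosome.

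Photosystem and antenna genes were called higher in CC-1690 on the deposited scale, none of them as a DEG. All 10 tested photosystem I core genes, 6 of 8 photosystem II core genes, 6 of 9 photosystem I antenna genes and 11 of 12 photosystem II antenna genes were called higher, against 32.9% of all genes. None was called lower, and the median log2 differences were 0.81, 0.64, 0.54 and 0.71 in this order. After quantile normalization the medians were -0.06, -0.34, -0.32 and -0.04, below 0 in all 4 lists, and without CC-1690 replicate 2 on the deposited scale they were 0.62, 0.46, 0.37 and 0.58. *PSAE1*, a stromal subunit of photosystem I, was at 5357, 10746, 5450 and 7934 FPKM in CC-1690, against 3092, 3305, 3387 and 3369 FPKM in CC-4532 (log2 difference 1.10 ± 0.22, adjusted p = 7.99e-05 in the moderated test). CC-1690 replicate 2 was the highest of all 8 libraries in each such gene named here. *LHCBM7*, a major antenna protein of photosystem II, was at 18117, 34335, 19422 and 25363 FPKM in CC-1690, against 10085 to 11995 FPKM in CC-4532, and *LHCBM9*, a scarcer member of that family, at 511.35 to 913.04 FPKM in CC-1690, against 268.38 to 315.7 FPKM in CC-4532. The *LHCBM* genes share long stretches of sequence, so that the levels of single copies are uncertain.

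**Figure D5:**
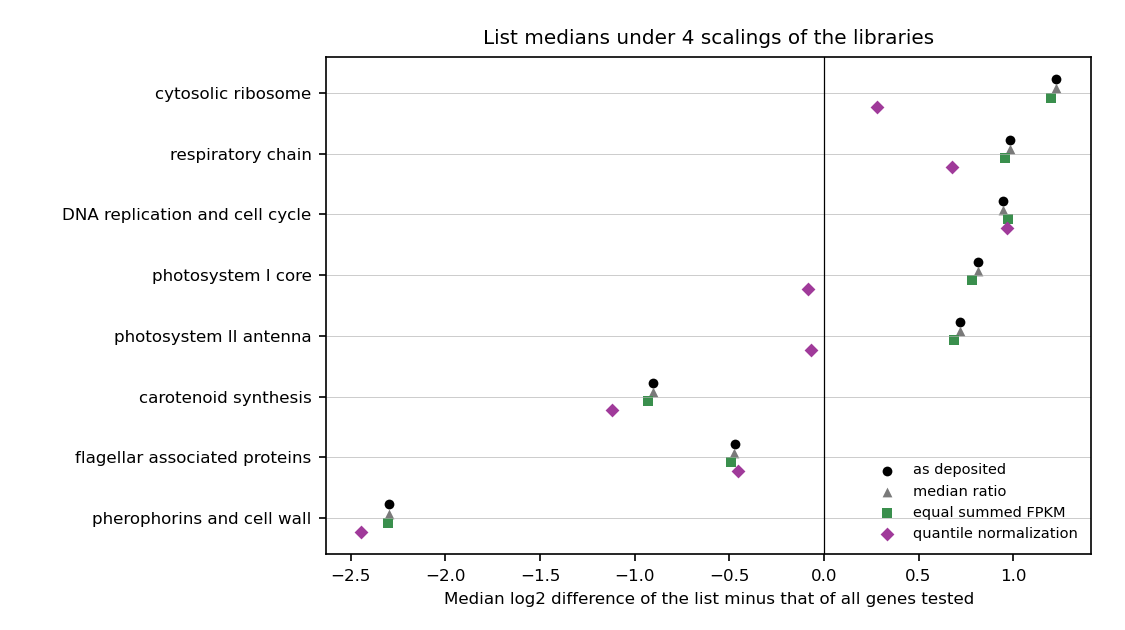
The x axis gives the median log2 difference (CC-1690 minus CC-4532) of 8 gene lists minus that of all genes tested, under 4 scalings of the libraries (symbols). The deposited, median ratio and equal-sum scalings nearly coincide in each list, while quantile normalization moves the ribosomal list to 0.28 and both photosynthetic lists to just below 0, and leaves the cell wall list at -2.45.

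Pigment synthesis genes went the other way. Of 14 carotenoid synthesis genes, 13 were called lower in CC-1690 (92.9%, against 33.4% of all genes) and 1 higher (7.14%, against 32.9%). The median log2 difference was -0.90 relative to all genes, and there was no DEG. *LCYE1*, the lycopene epsilon cyclase that opens the path to lutein, was at 14.27, 16.3, 12.45 and 11.89 FPKM in CC-1690, against 35.83, 34.6, 38.37 and 40.08 FPKM in CC-4532 (log2 difference -1.44 ± 0.17, adjusted p = 6.44e-08 in the moderated test). *PDS1*, phytoene desaturase, was at 37.12 to 70.03 FPKM in CC-1690, against 96.35 to 110.92 FPKM in CC-4532, *CHYB1*, a beta-carotene hydroxylase, at 9.47 to 15.11 and 25.11 to 29.57 FPKM in the same order, and the ketolase gene *BKT1* at 2.22 to 2.97 and 4.8 to 6.15 FPKM. Of 27 genes of chlorophyll and heme synthesis, 16 were called lower (59.3%) and 3 higher (11.1%), with a median of -0.56. *GUN4* and *CHLD1*, which serve the magnesium chelatase that commits porphyrin to chlorophyll, were at 18.76 to 38.21 and 28.05 to 48.83 FPKM in CC-1690, against 65.72 to 76.79 and 84.64 to 97.48 FPKM in CC-4532. The 2 DEGs of that list were both higher: *HMOX2*, a heme oxygenase, at 7.7 to 10.09 FPKM in CC-1690, against 2.15 to 2.96 FPKM in CC-4532, and *PBGD2*, a porphobilinogen deaminase, at 2.76 to 6.59 FPKM in CC-1690, against 1.07 to 1.41 FPKM in CC-4532.

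Photoprotection genes were divided within a family. The *LHCSR* genes code for the stress-related antenna proteins that dissipate excess light in this alga. *LHCSR3B* was at 223.6, 123.48, 241.74 and 252.7 FPKM in CC-1690, against 51.94, 56.92, 53.31 and 40.83 FPKM in CC-4532 (log2 difference 2.01 ± 0.30), and *LHCSR3A* at 115.49 to 242.52 FPKM in CC-1690, against 44.45 to 63.44 FPKM in CC-4532 (1.74 ± 0.25). *LHCSR1* was at 23.74, 15.2, 27.14 and 24.68 FPKM in CC-1690, against 50.39, 41.39, 54.01 and 53.87 FPKM in CC-4532 (-1.16 ± 0.24, adjusted p = 0.000179 in the moderated test). All 3 separate the strains, as did 62.8% of all genes tested, and none passed the treat test. CC-1690 replicate 2 was the lowest of its strain each time. The near-identical *LHCSR3A* and *LHCSR3B* share reads. *PTOX2*, a plastid terminal oxidase that takes electrons from plastoquinol, was the DEG of the list, at 86.99, 113.3, 116.42 and 109.89 FPKM in CC-1690, against 25.59, 25.69, 25.2 and 21.84 FPKM in CC-4532 (2.11 ± 0.22, treat adjusted p = 0.000358).

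Carbon-concentrating genes, which raise CO2 around Rubisco, showed no common direction. Of 43 tested, 10 were called higher (23.3%, against 32.9% of all genes), 16 lower (37.2%, against 33.4%) and 17 neither. *LCI33* was at 0.48 to 0.87 FPKM in CC-1690, against 5 to 6.19 FPKM in CC-4532, and *LCI36* at 30.51 to 46.35 FPKM in CC-1690, against 8.5 to 10.3 FPKM in CC-4532, both as DEGs. *CCM1* (also *CIA5*), the regulator that switches on CO2-responsive genes, was a DEG with a decrease, at 9.63, 6.56, 6.44 and 7.88 FPKM in CC-1690, against 20.67, 23.06, 24.49 and 24.21 FPKM in CC-4532 (log2 difference -1.60 ± 0.13, treat adjusted p = 0.000986). *LCI1*, a CO2-responsive plasma membrane protein, was nonetheless at 1094, 704, 1083 and 994 FPKM in CC-1690, against 317, 292, 298 and 357 FPKM in CC-4532 (1.60 ± 0.21, treat adjusted p = 0.0497). The bicarbonate transporter *HLA3* and the periplasmic carbonic anhydrase *CAH1* (picked after their values were seen) were not called: *HLA3* was at 168 to 359 FPKM in CC-1690 and 208 to 315 FPKM in CC-4532, and *CAH1* at 2801 to 3381 FPKM in CC-1690 and 3743 to 3915 FPKM in CC-4532. In the Calvin-Benson cycle list 3 of 15 genes were called higher and 6 lower. Its DEG was *RCA2*, an activase-like protein, at 7.2, 8.3, 6.88 and 7.13 FPKM in CC-1690, against 42.58, 41.33, 44.26 and 48.53 FPKM in CC-4532, while *RBCS2*, the Rubisco small subunit, was at 8138 to 17282 FPKM in CC-1690, against 5598 to 6111 FPKM in CC-4532, a difference that was -0.053 on the log2 scale after quantile normalization.

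Nitrogen genes and arylsulfatases went in both directions, while sodium/phosphate symporters were mostly lower. In the nitrogen list 18 of 36 tested genes were called higher and 9 lower (median log2 difference 0.29), with *NRT2D*, *NRT2E* and the ammonium transporters *AMT1D* and *AMT1A* as the DEGs with an increase and *GSF1*, a ferredoxin-dependent glutamate synthase picked after its values were seen, as the DEG with a decrease, at 38.54 to 50.07 FPKM in CC-1690, against 123.04 to 140.66 FPKM in CC-4532. The *AMT* family had no common direction, with 3 of 7 called higher and 3 lower (median -0.29). *AMT1A* was at 6.36, 3.18, 2.25 and 3.14 FPKM in CC-1690, against 0.43 to 0.67 FPKM in CC-4532, and *AMT1D* at 1.22 to 1.49 FPKM in CC-1690, against 0.08 to 0.18 FPKM in CC-4532. *NIT2*, the activator of nitrate assimilation (picked after its values were seen), was called lower, at 4.44 to 5.3 FPKM in CC-1690, against 9.47 to 10.43 FPKM in CC-4532. Sodium/phosphate symporters were lower: 10 of 11 *PTB* genes were called lower and none higher, with a median of -0.96, and *PTB12* had the largest difference, at 1.18 to 1.51 FPKM in CC-1690, against 8.09 to 14.27 FPKM in CC-4532. *PSR1*, the regulator of phosphorus starvation responses (picked after its values were seen), was also a DEG with a decrease (-1.57). The arylsulfatases were mixed, with 7 of 17 called higher and 5 lower, and *ARS8* was at 0.15 to 0.58 FPKM in CC-1690, against 2.73 to 3.65 FPKM in CC-4532, opposite to *ARS1*.

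Among metal uptake genes 21 of 39 were called lower (53.8%, against 33.4% of all genes) and 8 higher (20.5%, against 32.9%). *FOX1* (Cre09.g393150), the multicopper ferroxidase of high-affinity iron uptake, was at 26.83, 60.78, 14.19 and 19.54 FPKM in CC-1690, against 143.88, 144.17, 126.46 and 137.39 FPKM in CC-4532 (log2 difference -2.40 ± 0.31, treat adjusted p = 0.0012). *FEA2*, a secreted iron assimilation protein, was at 18.87, 126.78, 12.98 and 25.51 FPKM in CC-1690, against 167.14, 191.12, 135.27 and 129.87 FPKM in CC-4532 (-2.36 ± 0.51, treat adjusted p = 0.0742). CC-1690 replicate 2 was the highest of its strain in both genes and lay just under the lowest CC-4532 library in *FEA2*. *NRAMP4*, a manganese and metal transporter, was a DEG at 1.52 to 3.64 FPKM in CC-1690, against 7.93 to 9.08 FPKM in CC-4532, and the zinc transporter *ZRT1* was at 0.09 to 0.56 FPKM in CC-1690, against 0.8 to 1.27 FPKM in CC-4532.

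Redox genes were higher beyond *GPX1* and *GSTS1*. Of 61 tested, 39 were called higher (63.9%, against 32.9% of all genes) and 4 lower (6.56%, against 33.4%), with a median log2 difference of 0.58. *GPX5*, another glutathione peroxidase, was at 113.98, 165.4, 146.73 and 159.87 FPKM in CC-1690, against 34.54, 33, 35.08 and 33.63 FPKM in CC-4532 (2.09 ± 0.18, treat adjusted p = 3.65e-05). *VTC2*, which makes the committed step of ascorbate synthesis, was an exception at 2.56 to 3.36 FPKM in CC-1690, against 9.55 to 11.47 FPKM in CC-4532. In the list of acetate and glyoxylate metabolism 16 of 23 genes were called higher and 1 lower (median 0.46) on the deposited scale, against 10 higher and 6 lower (median 0.051) after quantile normalization. *ACS1*, which activates acetate to acetyl-CoA, was at 26.27, 29.05, 25.15 and 25.25 FPKM in CC-1690, against 5.15, 5.92, 5.13 and 5.21 FPKM in CC-4532 (2.28 ± 0.10, treat adjusted p = 4.03e-11), and *ACK1*, acetate kinase, was at 9.6 to 14.29 FPKM in CC-1690, against 3.09 to 4.24 FPKM in CC-4532. The malate dehydrogenases *MDH4* and *MDH3* were at 487.73 to 720.36 and 106.75 to 125.27 FPKM in CC-1690, against 247.16 to 264.2 and 47.53 to 59.97 FPKM in CC-4532.

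Storage and fermentation lists had DEGs in both directions. In starch metabolism 16 of 29 genes were called lower (55.2%, against 33.4% of all genes) and 5 higher (17.2%, against 32.9%). *AGP2*, a large subunit of ADP-glucose pyrophosphorylase, was at 5.57 to 9.12 FPKM in CC-1690, against 1.79 to 1.98 FPKM in CC-4532. *SSS3B*, a soluble starch synthase, was at 3.51 to 4.51 FPKM in CC-1690, against 14.01 to 14.97 FPKM in CC-4532. In lipid metabolism 13 of 34 were called lower (38.2%, near the 33.4% of all genes) and 5 higher (14.7%, against 32.9%). *MLDP1*, the major lipid droplet protein, was at 41.15, 35.84, 53.16 and 58.96 FPKM in CC-1690, against 11.93 to 13.43 FPKM in CC-4532. The acyltransferase *DGTT6* and the galactolipid synthase *MGD1* were instead at 1.7 to 2.36 and 4.3 to 8.43 FPKM in CC-1690, against 6.93 to 8.03 and 18.75 to 23.18 FPKM in CC-4532. In the fermentation list 5 of 15 were called higher (33.3%, against 32.9% of all genes) and 7 lower (46.7%, against 33.4%). *PFR1*, the pyruvate ferredoxin oxidoreductase that feeds hydrogen production, was at 0.38 to 0.8 FPKM in CC-1690, against 2.53 to 4.49 FPKM in CC-4532. The hybrid-cluster proteins *HCP1* and *HCP2* were higher, at 5.07 to 10.29 and 17.92 to 36.99 FPKM in CC-1690, against 1.08 to 1.47 and 7.15 to 9.21 FPKM in CC-4532.

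Signalling genes were mostly lower. Of 59 tested genes for adenylate or guanylate cyclases, which make cyclic nucleotides and are a large family in this alga, 48 were called lower in CC-1690 and 3 higher. Over all genes tested 33.4% were called lower and 32.9% higher. The median log2 difference of the cyclases was -1.09, and 11 were DEGs with a decrease and 2 with an increase, while 3.71% and 2.36% of all genes were. Cre14.g628850 was at 0.02 to 0.12 FPKM in CC-1690, against 3.46 to 3.99 FPKM in CC-4532 (-4.46 ± 0.22), while Cre13.g574400 was at 6.98 to 9.53 FPKM in CC-1690, against 0.7 to 1.15 FPKM in CC-4532 (3.06 ± 0.16). Of 28 tested cyclic nucleotide phosphodiesterases, which degrade them, 17 were called lower and 5 higher. Scavenger receptor cysteine-rich and lectin genes, which code for putative cell surface receptors, were lower in 16 of 24 cases (66.7%) and higher in 3 (12.5%). Of the 24, 9 were DEGs, each lower. Cre09.g404750 was at 0.18, 0.15, 0.04 and 0.11 FPKM in CC-1690, against 34.36, 32.68, 37.19 and 39.51 FPKM in CC-4532 (-7.40 ± 0.25), and Cre06.g281450 at 0.29 to 0.64 FPKM in CC-1690, against 54.7 to 61.45 FPKM in CC-4532 (-6.85 ± 0.25).

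Clock and photoreceptor genes were also mostly lower, with 19 of 27 called lower (70.4%, against 33.4% of all genes) and 2 higher (7.41%, against 32.9%). *ROC40* (Cre06.g275350), a transcription factor of the circadian clock, was at 1.73, 1.55, 0.5 and 0.51 FPKM in CC-1690, against 13.54, 13.34, 18.87 and 21.21 FPKM in CC-4532 (log2 difference -4.01 ± 0.34, treat adjusted p = 1.12e-07). *ROC75* was at 1.09 to 1.25 FPKM in CC-1690, against 4.36, 3.9, 7.6 and 7.01 FPKM in CC-4532 (-2.17 ± 0.25), and *ROC59* was called higher, at 6.11, 8.9, 3.17 and 3.16 FPKM in CC-1690, against 1.2 to 1.6 FPKM in CC-4532 (1.78 ± 0.24). The 5 other strains had means of 0.2 to 3.97 FPKM for *ROC40*, 1.25 to 3.43 FPKM for *ROC75* and 6.4 to 20.1 FPKM for *ROC59*. The CC-4532 mean lay above these for *ROC40* and *ROC75* and below them for *ROC59*. The CC-1690 mean lay within them for *ROC40* and below them for *ROC75* and *ROC59*. In these clock genes replicates 1 and 2 lay apart from replicates 3 and 4, in CC-1690 for *ROC40* and *ROC59* and in CC-4532 for *ROC40* and *ROC75*. The study inoculated each of these strains in 2 batches of 2 flasks, but the sources used here do not name the flasks of each batch, and the part of the batch in these values was not tested. Channelrhodopsin 1 (*CHR1*), a light-gated channel of the eyespot, was at 36.36 to 45.26 FPKM in CC-1690, against 90.34 to 102.1 FPKM in CC-4532. Among transcription factors, the bZIP gene Cre12.g557300 was at 6.18 to 9.11 FPKM in CC-1690, against 0.46 to 0.55 FPKM in CC-4532, and *RWP12* at 6.13 to 9.3 FPKM in CC-1690, against 1.65 to 2.16 FPKM in CC-4532.

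Some genes were on in a single strain of the pair. A gene was called on in a strain when all 4 libraries were at 1 FPKM or above and off when all 4 were at 0.1 FPKM or below, which involves no test. By this rule 13 of 17611 genes (0.0738%) were on in CC-1690 and off in CC-4532, and 29 (0.165%) were off in CC-1690 and on in CC-4532. After *ECP88* the highest of the 13 were Cre05.g239350 (3.3 to 5.47 FPKM in CC-1690, 0 to 0.07 FPKM in CC-4532), Cre09.g801023 (4.18 to 4.84 and 0 to 0.06 FPKM) and Cre06.g249450 (2.75 to 6.62 FPKM, and listed at 0 in all 4 CC-4532 libraries). The highest of the 29 were Cre09.g800978 (0 to 0.1 FPKM in CC-1690, 30.51 to 33.56 FPKM in CC-4532), Cre06.g270050 (0 to 0.06 and 21.61 to 26.26 FPKM), Cre09.g800984 (0 to 0.09 and 18.91 to 25 FPKM) and Cre06.g250050 (0 to 0.04 and 13.74 to 16.16 FPKM), all without a definition. Only 2 of the 13 and 4 of the 29 carry a symbol. For 2 of the 13 and 2 of the 29 the means of all 5 other strains were at 1 FPKM or above, and for 1 of the 29 (*THB8*) they were all at 0.1 FPKM or below.

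Some DEGs had a neighbour of the same kind. In the gene ID order, which approximates the order on chromosomes, 103 of the 548 lower DEGs (18.8%) stood next to another lower DEG, against 6.00% of all genes in the table. Of the 349 higher DEGs, 24 (6.88%) stood next to another higher DEG, against 3.89% of all genes. No test was made of these counts. Set among the 7 strains, CC-1690 alone had a mean outside the range of the 5 other strains for 385 of the 897 DEGs, CC-4532 alone for 155, both for 242 and neither for 115. These counts cover only DEGs, which were chosen for a difference between CC-1690 and CC-4532. The same shares over all genes were not computed, so the counts do not show which strain is the more unusual.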

How the data were processed

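RNA abundance was measured in 4 biological replicate cultures per strain, and samples were grouped by the strain in their labels. Poly-A reads of all strains were aligned by STAR to the genome of CC-4532, where a read with several locations was kept at 1 of them at random, and were counted by strand with featureCounts. The deposited FPKM values, given to 2 decimals, were derived by the authors from these counts using DESeq2. CC-1690 reads that differ from the CC-4532 sequence can therefore be lost while CC-4532 reads are not, and the part of this in genes lower in CC-1690 was not tested. A second deposited table of strain means was not used. In 1 line the values were read from the end because the definition was split.

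Of 17611 genes, the 14785 whose mean exceeded 1 FPKM in any strain were fitted on log2(FPKM + 0.1) by strain over all 28 libraries with limma 3.58.1 in R 4.3.3, with a trend in the variance and Benjamini-Hochberg adjustment over all genes tested. The fit was tested on simulated data. Plots were drawn with matplotlib 3.10.9 from tables made with pandas 2.3.3. The counting error of an FPKM cannot be given without the reads behind it. The p-values rest on the spread between replicate cultures within a strain, shared over the 7 strains and drawn toward the trend. The cultures of each compared strain came from 2 batches of 2 flasks, which the fit did not model.

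Named were the 12 DEGs with a symbol and 3 without that differed most in each direction, among DEGs in which the strains did not overlap. Also named were up to 4 called members per gene list (43 lists, matched by symbol or definition), the mating type genes and the 4 highest genes on in a single strain. Genes picked otherwise are marked. The comparison, the lists and the tests were chosen with earlier results of these data known. Alternatives were pseudocounts of 1 and 0.01, median ratio, quantile and equal-sum scaling, filters, other tests, a replicate block, other sets of libraries and leaving out each library.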

Additional observations from a re-analysis of the deposited data

Results flagged for a closer look

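Among the 310 groups of 4 replicate values of named genes, 16 held a sample far from its 3 companions by Dixon's criterion, and chance alone marks about 1 in 20 such groups. CC-1690 replicate 2 was the sample apart for *COX19* (21.61 FPKM), *FEA2* (126.78 FPKM), *VTC2* (3.36 FPKM), *CYB2* (12.02 FPKM) and *PHC18* (10.63 FPKM), the highest of its strain each time. In the other CC-1690 libraries the criterion marked *DHC6* in replicate 1 (2.72 FPKM). In CC-4532 it marked replicate 4 for *PTOX2* (21.84 FPKM), *LHCSR3A* (44.45 FPKM), *MRPL87* (9.86 FPKM), *PPD1* (4.45 FPKM), *MGD1* (23.18 FPKM) and *HSP22F* (113.44 FPKM), replicate 2 for *ACS1* (5.92 FPKM) and *MMP25* (6.61 FPKM), replicate 1 for *GAS30* (1.29 FPKM) and replicate 3 for *CYB2* (0.25 FPKM). The 2 strains did not overlap in any of these genes, as was so for 62.8% of all genes tested. In *FEA2*, though, CC-1690 replicate 2 came near the lowest CC-4532 library, at 129.87 FPKM.

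Whole libraries were marked 3 times. CC-1690 replicate 2 had 524 genes more than 2-fold from its companions and a median of 61.78 FPKM over the redox genes. CC-4532 replicate 2 had a median of 6.72 FPKM over the flagellar associated proteins.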

How the results depend on the processing

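The count of 897 DEGs (349 higher, 548 lower) was 514 (213 and 301) with a pseudocount of 1, 3332 (1654 and 1678) with a moderated test and a separate 2-fold limit, and 1550 (110 and 1440) with equal summed FPKM, a scaling added after the data were seen. Leaving out 1 replicate of either strain gave 755 to 854 DEGs. Leaving out CC-4533 replicate 3, a library of another strain that enters the shared variance and was chosen after the data were seen, gave 1055. Same-numbered replicates did not deviate together (correlations of 0.04, -0.13, -0.03 and -0.17), and a replicate block gave 875 DEGs (338 and 537). The genes called higher were 1384 with equal summed FPKM, and those called lower were 9082 with equal summed FPKM and 2869 with a filter at 5 FPKM. With 2 FPKM as the limit for an expressed gene, 6 genes were on in CC-1690 alone and 18 in CC-4532 alone.

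Quantile normalization gave list medians of -0.058 (photosystem I core), -0.34 (photosystem II core), -0.32 (photosystem I antenna), -0.043 (photosystem II antenna), -1.09 (carotenoid synthesis), 0.30 (cytosolic ribosome), 0.70 (respiratory chain), 0.051 (acetate), 0.32 (redox) and -0.69 (cyclic nucleotide enzymes). It also turned the sign of *PSBX1* (-0.16), *RBCS2* (-0.053), *PSBR1* (-0.23), *LHCA8* (-0.26), *LHCA6* (-0.32), *LHCA1* (-0.24), *PSBQ1* (-0.26), *PSAF1* (-0.068), *PSBW1* (-0.42), *LHCBM2* (-0.15) and *LHCA7* (-0.17). Equal summed FPKM, which lowers all genes alike, gave medians of 0.11 (photosystem I core), -0.060 (photosystem II core), -0.16 (photosystem I antenna), 0.014 (photosystem II antenna), -1.61 (carotenoid synthesis), -0.38 (nitrogen), -1.16 (flagellar associated proteins), -2.98 (cell wall), -1.29 (metalloproteinases), -0.083 (prolyl hydroxylases), 0.52 (cytosolic ribosome), -0.43 (mitochondrial ribosome), 0.28 (respiratory chain), -0.24 (acetate), -0.27 (histones), 0.30 (replication), -0.17 (DNA repair), -0.12 (redox) and -1.44 (cyclic nucleotide enzymes), and *HBV1* (-0.054), *LHCA6* (-0.047) and *PSBW1* (-0.038) below 0. A pseudocount of 1 gave -1.97 (cell wall), -0.62 (metalloproteinases) and -0.53 (cyclic nucleotide enzymes). A filter at 5 FPKM gave -0.35 (flagellar associated proteins), -2.16 (metalloproteinases) and -0.65 (cyclic nucleotide enzymes), and no filter -0.61 (metalloproteinases). The carotenoid median ran from -1.07 to -0.83 when 1 replicate was left out, the first of these without CC-1690 replicate 2, and was -1.07 also without that library and CC-4533 replicate 3 together. The cause of these moves was not tested beyond the scalings. Of 3611 values of 182 named genes under alternatives, 3430 kept their direction and side of the threshold, 167 were weaker and 14 reversed, and 391 of the 897 DEGs (68 of the 95 named ones) were DEGs under all 17 planned settings of the fit. Only FPKMs were used, so the counting error of low values is unknown.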

Other observations

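Heat shock genes were called lower in CC-1690 in 19 of 46 cases (41.3%, against 33.4% of all genes) and higher in 11 (23.9%, against 32.9%), with a median log2 difference of -0.37. The small heat shock gene *HSP22F* was at 20.26, 20.56, 10.11 and 13 FPKM in CC-1690, against 95.69, 94.14, 97.16 and 113.44 FPKM in CC-4532 (-2.70). Of 40 DNA repair genes, 21 were called higher (52.5%) and 4 lower (10.0%), with a median of 0.42, and *RAD51C*, a recombinase paralog, was at 1.52 on the log2 scale. Of 17 histone genes, 4 were called higher (23.5%, below the 32.9% of all genes) and none lower. Histone copies are near-identical, and reads with several possible places were given 1 at random.

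Among gamete and zygote genes, *GAS28* was at 4.55, 3.42, 3 and 4.36 FPKM in CC-1690, against 36.46, 44.66, 32.6 and 32.04 FPKM in CC-4532 (log2 difference -3.22), and *GOX20*, a glyoxal oxidase, at 1.48, 0.86, 1.29 and 1.63 FPKM in CC-1690, against 0.12, 0.18, 0.18 and 0.11 FPKM in CC-4532 (2.49). Of the 12 *THB* genes for truncated hemoglobins, 11 were tested, 3 of them called higher and 4 lower, against 32.9% and 33.4% of all genes.

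The remaining lists are given beside the share of all genes tested, of which 32.9% were called higher and 33.4% lower. Of 19 cytochrome b6f and electron carrier genes 9 were called higher in CC-1690 (47.4%) and 4 lower (21.1%). Of 21 photoprotection genes 5 were called higher (23.8%) and 8 lower (38.1%), and of 3 chloroplast ATP synthase genes 1 lower. Of 57 phosphate and sulfate genes 13 were called higher (22.8%) and 26 lower (45.6%). Of 56 transcription factors 13 were called higher (23.2%) and 26 lower (46.4%). The ABC and P-type transporters were mostly lower, with 11 of 19 called lower (57.9%), 2 higher (10.5%) and a median log2 difference of -0.55. Of 12 transposon related genes 3 were called in each direction.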
